A study of Mus musculus with 12 samples.

Results

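The genes described here are 9 that the liver switches on through the nuclear receptor PPAR alpha when it lives on fat, as in fasting: Pdk4, Cyp4a10, Cyp4a14, Acot1, Vnn1, Fgf21, Angptl4, Plin2 and Cpt1a. They were taken by symbol from the processed RNA-sequencing table, where all 9 had a row among 30743. The libraries came from whole livers of C57BL/6J male fetuses at 15 ± 0.5 days post coitum (dpc), 6 from dams on a control diet with 13.5% of calories as fat and 6 from dams on a high-fat diet (HFD) with 60%, each diet given for 12 to 14 weeks. The offspring shared strain, sex and age, and the labels do not say which fetuses share a litter. Apart from the submitters' own diet comparison, the table holds 1 average log2 CPM (reads of a gene scaled to a common library size of 1e6) for each gene over all 12 livers. That comparison was not used, so the levels below belong to control and HFD livers together. No difference between the diets and no spread between livers can be given.

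PPAR alpha is a receptor for fatty acids and their derivatives. With its partner RXR it binds DNA at paired copies of a short motif spaced by a single base (a DR1 element) and raises transcription of genes that take up, store, oxidise and export lipid. In the adult liver the pathway is best known from fasting, when fatty acids arrive from adipose tissue. The fetal liver is at the same time the main site of blood formation, so a level measured in whole tissue is a mean over hepatocytes, erythroid cells and other cells. In such tissue fewer cells of a type and less RNA per cell cannot be told apart.

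Of the 9 genes, 5 lay above 1 CPM (Plin2, Cpt1a, Acot1, Pdk4 and Vnn1), 2 had a trace of reads (Cyp4a14 and Fgf21) and 2 were listed without reads (Angptl4 and Cyp4a10). Per kilobase of transcript, the lipid droplet gene Plin2 stood 11.2 times above the next gene, Acot1. Without division by length it stood 5.61 times above the next, Cpt1a. Every level is given as CPM above the floor, the value that genes without reads receive. That floor was an average log2 CPM of -2.71, or 0.152 CPM, and held 11091 rows (36.1%). The median of the 19652 rows with reads was 0.994 CPM, and 9810 rows lay above 1 CPM. The steps above the floor corresponded to whole reads summed over the 12 livers, with a mean library of 13129748 reads after the authors' normalization.

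Some of the genes have close neighbours in sequence, which bears on their levels. Cyp4a10 lies on chromosome 4 at chr4:115518264-115533649 (GRCm38, plus strand), 22121 bases from Cyp4a14 at chr4:115486200-115496142 (minus strand) and 29999 bases from Cyp4a31. Of all 50-base stretches of the longest Cyp4a10 coding transcript, 30.5% also occurred in transcripts of other genes, 25% in Cyp4a32 and 15.3% in Cyp4a31. Acot1, at chr12:84009490-84018371 (plus strand), lies 15616 bases from Acot2, and 33.6% of its stretches were shared, 23.7% with Acot2. The share was 4.89% for Plin2, with the pseudogene Gm12551 alone, 1.43% for Pdk4 and 0.245% for Cyp4a14. It was 0 for Vnn1, Fgf21, Angptl4 and Cpt1a. No exon of the 9 genes overlapped an exon of another annotated gene.

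The longest coding stretch of Cyp4a10 and of Acot1 that a relative also carries is printed below, because a read from inside it cannot be assigned to 1 gene by sequence. Capitals mark the identical run and lower case the 10 coding bases on each side, 5′ to 3′ on the coding strand. The run shared with Cyp4a31 covers coding bases 1279 to 1464 of Cyp4a10 in 3 exons within chr4:115529294-115532633. The run shared with Cyp4a32 covers bases 844 to 1022 in 2 exons within chr4:115525358-115525625. The run of Acot1 shared with Acot2 covers bases 887 to 1159 in a single exon, chr12:84017006-84017278.
Cyp4a10 with Cyp4a31: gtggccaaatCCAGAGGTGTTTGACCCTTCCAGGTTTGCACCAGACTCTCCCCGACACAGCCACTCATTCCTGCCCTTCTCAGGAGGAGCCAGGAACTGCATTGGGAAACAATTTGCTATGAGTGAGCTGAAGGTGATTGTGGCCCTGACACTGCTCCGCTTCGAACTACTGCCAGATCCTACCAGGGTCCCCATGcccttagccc
Cyp4a10 with Cyp4a32: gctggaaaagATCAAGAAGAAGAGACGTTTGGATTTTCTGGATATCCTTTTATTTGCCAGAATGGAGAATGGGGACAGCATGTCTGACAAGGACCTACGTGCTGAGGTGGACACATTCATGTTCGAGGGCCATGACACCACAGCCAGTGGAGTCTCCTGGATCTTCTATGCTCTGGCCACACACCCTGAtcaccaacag
Acot1 with Acot2: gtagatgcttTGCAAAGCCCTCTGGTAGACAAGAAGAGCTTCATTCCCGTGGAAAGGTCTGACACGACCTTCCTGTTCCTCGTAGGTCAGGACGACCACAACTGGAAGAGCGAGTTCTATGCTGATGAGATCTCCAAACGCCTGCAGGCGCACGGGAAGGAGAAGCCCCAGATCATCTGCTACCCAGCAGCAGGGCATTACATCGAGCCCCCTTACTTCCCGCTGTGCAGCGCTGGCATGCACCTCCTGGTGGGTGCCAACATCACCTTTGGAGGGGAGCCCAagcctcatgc

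These runs are 186, 179 and 273 bases long, and that of Acot1 makes up 21.7% of the Acot1 coding sequence. How reads that match several places were counted is not given in the sources used here, so the levels of Cyp4a10 and Acot1 are uncertain with regard to these relatives.

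Promoters, from 250 bases before to 50 after the start of the gene, were matched in RefSeq (GRCm38.p6) for 5 of the 9 genes: Pdk4, Acot1, Fgf21, Plin2 and Cpt1a. The start is that of RefSeq, which for Cpt1a lies 967 bases inside the gene as GENCODE draws it and for the others at most 31 bases from the GENCODE start. Each was searched on both strands for the DR1 letters AGGTCANAGGTCA and for the single copy AGGTCA, which is part of the DR1. Plin2 held the closest match, with 2 mismatches on the opposite strand, lying at position -225 from the start site, and 3.81% of 27025 promoters held a match as close. The best match of the other 4 had 4 mismatches, a level that 79.6% of promoters reach. An exact single copy occurred in the windows of Plin2 and Cpt1a and in 16% of all promoters. The best matches of Plin2 (chr4:86670257-86670299, minus strand) and of Pdk4 (chr6:5496407-5496449, minus strand) are shown as the closest match and an example of the others, with the matched letters in capitals, as read along the strand of each gene.
Plin2: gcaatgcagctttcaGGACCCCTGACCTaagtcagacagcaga
Pdk4: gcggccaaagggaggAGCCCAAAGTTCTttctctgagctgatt

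A match of letters is a description and not evidence of binding. Sites that lie elsewhere, such as in introns, were not searched.

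The labelled tissue was checked against marker genes. Hepatocyte genes were high, with Alb at 63314 CPM, Afp at 54525 CPM and Apob at 2899 CPM, and 6 of 7 lay above 1 CPM. The seventh, the hepatocyte transcription factor Hnf4a, was listed at the floor. Of 6 erythroid genes 5 lay above 1 CPM, led by Slc4a1 at 12037 CPM, while Alas2, the first enzyme of erythroid haem synthesis, stood at 0.552 CPM. Of 4 macrophage genes only Cd5l passed 1 CPM, of 3 endothelial genes Cdh5 and Kdr did while Pecam1 was at the floor, and all 4 skeletal muscle genes (10.2 to 54.9 CPM) and 2 of 5 acinar pancreas genes did. Of 4 adipocyte genes 3 were at the floor and Adipoq had 3 reads.

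Some genes that nearly every cell uses were low as well, which limits how a low level of any gene in this table can be read. Of 37 such genes, listed after the table had been opened, 30 lay above 1 CPM and 7 below it. Ppia, which encodes cyclophilin A, had 2 reads over all 12 livers, Rab7 had 6, and the lactate dehydrogenase gene Ldha stood at 0.634 CPM. Gapdh reached 5.05 CPM against 2581 for Actb. Among protein-coding genes the upper decile of average log2 CPM fell with the number of curated RefSeq transcripts, from 6.76 with 1 transcript (11284 genes) to 5.15 with 2, 4.56 with 3, 3.95 with 4 and 3.72 with 5 or more (1017 genes). The share above 100 CPM was 10.9% with 1 transcript and 1.97% with 5 or more. With coding transcripts of GENCODE the upper decile also fell, from 6.71 with 1 to 5.09 with 5 or more, whereas with all GENCODE transcripts it was 5.58 with 1 and 6.48 with 5 or more. These counts were chosen after the data were seen, and their part in the levels was not tested. The share at the floor was 24.5% with 1 curated transcript and 17.9% with 5 or more. All 9 fasting genes have 1 curated transcript, as do Ppia and Por, so this number does not set Angptl4 and Cyp4a10 apart. By coding transcripts of GENCODE the fasting genes differ, with 4 for Plin2 and Cpt1a and 2 for Pdk4, Acot1 and Cyp4a10. Cyp4a14, Vnn1, Fgf21 and Angptl4 have 1. A gene at the floor is therefore described below as listed without reads and not as silent.

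**Figure D1:**
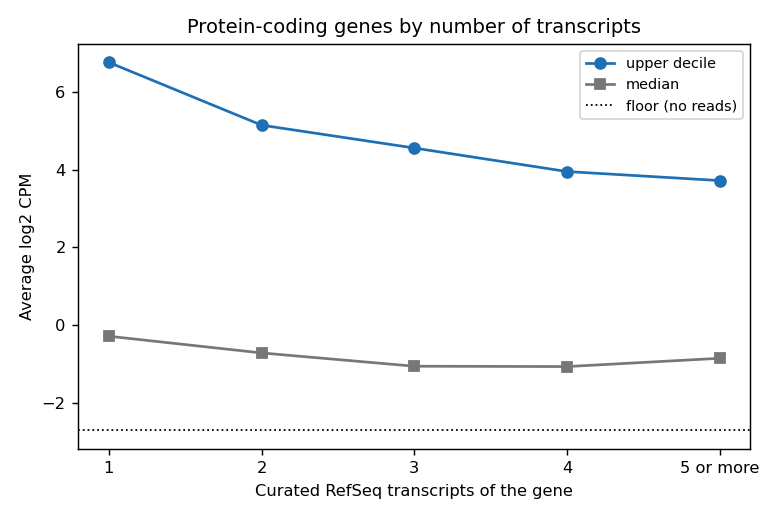
Average log2 CPM over 12 livers (vertical axis) of protein-coding genes by their number of curated RefSeq transcripts (horizontal axis), with the upper decile in blue, the median in grey and the floor dotted. The upper decile falls from 6.76 to 3.72, and the 9 fasting genes belong to the leftmost class.

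Plin2, Cpt1a and Acot1 had the highest levels of the 9 genes. They serve storage of fatty acids, their entry into mitochondria and their release from coenzyme A. Plin2, at chr4:86648386-86670060 (minus strand), encodes the perilipin that coats lipid droplets in liver. Its average log2 CPM was 8.76, or 432 CPM, higher than 98.6% of rows with reads. Per kilobase it reached 229 CPM. Cpt1a, at chr19:3322334-3385733 (plus strand), encodes the liver carnitine palmitoyltransferase that controls entry of long-chain fatty acids into mitochondria. It had an average log2 CPM of 6.27, 77.0 CPM and 17.8 CPM per kilobase, at percentile 89.5 of rows with reads. Acot1 encodes a cytosolic thioesterase that releases fatty acids from coenzyme A. It had an average log2 CPM of 5.54, 46.3 CPM and 20.4 CPM per kilobase, at percentile 85.0. Division by length placed Acot1 just above Cpt1a, while without it Cpt1a was the higher by 1.66 times, so the order of these genes rests on the transcript length chosen.

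The gene of fuel choice and that of coenzyme A recycling came next. Pdk4, at chr6:5483351-5496309 (minus strand), encodes a kinase that shuts off pyruvate dehydrogenase and so spares glucose. Its average log2 CPM was 3.74, or 13.2 CPM and 3.80 CPM per kilobase, at percentile 74.3. Vnn1, at chr10:23894688-23905343 (plus strand), encodes a pantetheinase, which frees cysteamine and vitamin B5. Its average log2 CPM was 3.35, or 10.0 CPM and 4.15 CPM per kilobase, at percentile 72.0. Per kilobase Pdk4 had 0.916 times the level of Vnn1, and without division by length 1.32 times. The ratio was 5.57 with the shortest annotated coding transcripts and 1.64 with the coding length, so only the longest transcripts placed Vnn1 higher. As no spread between livers is known, neither order can be set against replicate error.

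The genes of omega oxidation, in which cytochromes P450 of the Cyp4a group hydroxylate the far end of fatty acids, were at the bottom of the range. Cyp4a14 had an average log2 CPM of -1.85, or 0.125 CPM. That corresponds to 20 reads over 12 livers, with a 95% Poisson interval of 12.2 to 30.9 that covers counting error only. How those reads were spread over the livers is not shown by an average. It lay at percentile 27.2 of rows with reads. Cyp4a10 was listed at the floor, where a count of 0 allows up to 3 reads, or 0.0190 CPM, as a one-sided limit. The two-sided 95% Poisson interval, as given for the genes with reads, ends at 3.69 reads or 0.0234 CPM. Cyp4a32 and Cyp4a31, which share the sequences printed above with it, had 6 reads (interval 2.20 to 13.1) and 1 read.

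The secreted factors were also at the bottom of the range. Fgf21, at chr7:45613886-45615490 (minus strand), encodes the hormone that the fasting liver releases to act on other organs. It had an average log2 CPM of -2.60, which corresponds to 2 reads over 12 livers (95% Poisson interval 0.242 to 7.22) or 0.0126 CPM, at percentile 6.96. Angptl4, at chr17:33773750-33781830 (minus strand), encodes an inhibitor of lipoprotein lipase, the enzyme that unloads fat from blood lipoproteins. It was listed at the floor, where counting alone sets the same limits as for Cyp4a10. Neither gene shares a 50-base stretch with another gene's transcripts. The same was true of Por and Hnf4a, which were also at the floor, whereas Gpd1 at the floor shared 10.3% and Ppia with 2 reads 38.8%. Por, Hnf4a, Gpd1 and Ppia were named after their values were seen, as genes at or near the floor. The part of shared sequence in the levels was not tested.

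**Figure D2:**
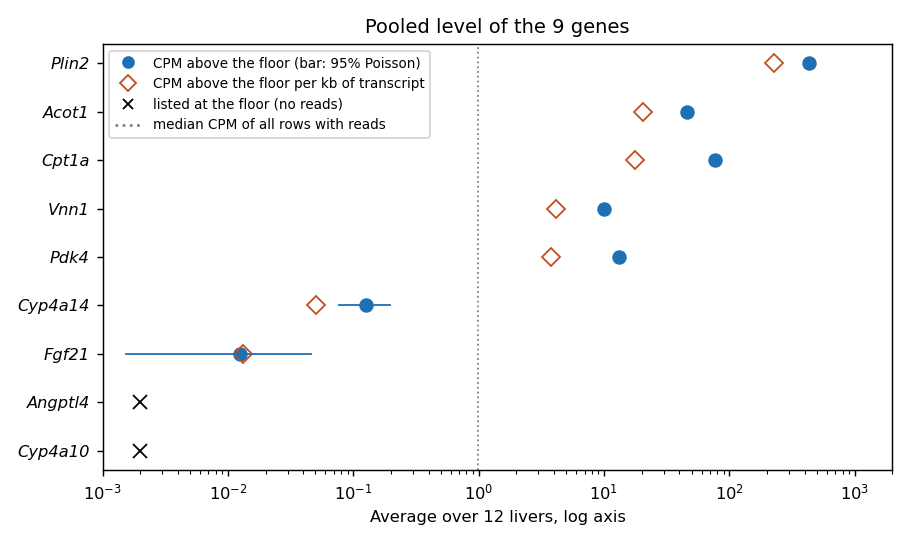
Level of each fasting gene as an average over 12 livers on a log axis, as CPM above the floor (blue; bars, 95% Poisson interval of genes with up to 20 reads) and per kilobase of the longest coding transcript (open diamonds). The genes run from Plin2 at 432 CPM down to Fgf21 at 0.0126 CPM, and crosses mark Angptl4 and Cyp4a10, listed at the floor and placed at the left edge.

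Set beside the relatives that have a row, 4 of the 9 genes had the highest level of their family per kilobase. Plin2 exceeded Plin3, the perilipin found in nearly all cells, by 7.51 times, and by 3.89 to 4.00 times without division by length, with the shortest transcripts or with the coding length. In the same family Plin5 and Plin4 had 7 and 4 reads. Plin1, the perilipin of adipocytes, was listed at the floor. Cpt1a exceeded Cpt1b, the muscle enzyme, by 3.34 times, and by 4.75 to 4.97 times under the same alternatives. Cpt1c, the brain enzyme, had 0.131 CPM per kilobase. Acot1 exceeded its mitochondrial relative Acot2 by 2.49 times and the peroxisomal Acot4 by 5.97 times. Under the same alternatives these ratios ran from 2.57 to 9.09 for Acot2 and from 2.18 to 2.27 for Acot4, so which of them lay closer to Acot1 depended on the length used. Acot6, Acot3 and Acot5 followed with 0.976, 0.175 and 0.0627 CPM per kilobase. Cyp4a14 led the Cyp4a genes with a row at 0.0503 CPM per kilobase, ahead of Cyp4a12a at 0.0288. Their intervals of 12.2 to 30.9 and 5.49 to 19.7 reads overlap, however. The relatives Cyp4a29 and Cyp4a30b have no row, so their levels are not known.

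The remaining genes did not lead their families. Among 4 pyruvate dehydrogenase kinases Pdk4 ranked below 2 per kilobase, with Pdk3 9.95 times and Pdk2 3.96 times above it, and it was 2.76 times above Pdk1. With the shortest annotated coding transcripts the ratio of Pdk2 to Pdk4 turned to 0.652, that of Pdk3 to Pdk4 was 1.64 and that of Pdk4 to Pdk1 was 16.8. With the coding length the last 2 were 5.99 and 1.96. Vnn3, which lies 24844 bases from Vnn1, had 1.37 times its level per kilobase. The ratio was 1.03 without division by length and 1.05 with the coding length, so the genes were nearly level under these measures. Without a known spread between livers, this order cannot be set against replicate error. The other endocrine fibroblast growth factors also had few reads, with 5 reads for Fgf15 (interval 1.62 to 11.7) and 10 for Fgf23 (interval 4.80 to 18.4), and both intervals overlap that of Fgf21. Of the relatives of Angptl4 described here, Angptl8 (listed as Gm6484) had 37.1 CPM per kilobase and Angptl6 14.1.

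**Figure D3:**
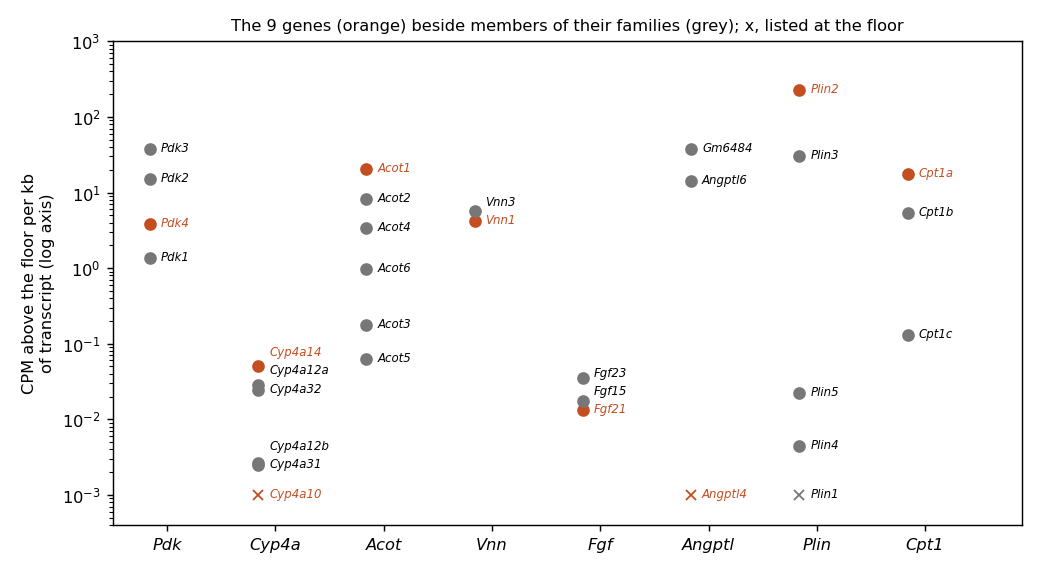
CPM above the floor per kilobase of transcript (vertical log axis) of the 9 fasting genes (orange) and their relatives (grey), by family. Plin2, Cpt1a, Acot1 and Cyp4a14 are the highest of their families among genes with a row. Crosses at the bottom mark Cyp4a10, Angptl4 and Plin1, listed at the floor.

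The receptor and its partners ran from the floor to 205 CPM. Of 15 such genes, 8 lay above 1 CPM, 5 had fewer reads and 2 were at the floor. Ppara itself stood at 1.07 CPM and 0.314 CPM per kilobase, against 13.1 CPM per kilobase for Ppard, the broadly expressed receptor of the same family, and 0.161 for Pparg, the adipocyte receptor. Ppara has 2 curated RefSeq transcripts, Pparg has 4 and Ppard 1. The partner Rxra reached 41.7 CPM per kilobase and Creb3l3, a liver factor that acts on Fgf21 together with PPAR alpha, 42.0. Without division by length Creb3l3 had 0.471 times the level of Rxra, so their order rests on the transcript length. Rxrb and the coactivator gene Ppargc1a were listed at the floor, and Ppargc1b had 1 read. Rxra, the highest of the 15 genes in CPM, has 3 curated transcripts, whereas Rxrb has 4 and Ppargc1a 1. The part of this number in the levels was not tested. Of the genes through which FGF21 signals, the coreceptor Klb had 20.1 CPM per kilobase and Fgfr1 had 5 reads. Fgfr4, the other fibroblast growth factor receptor listed, had 0.816 CPM per kilobase. Fgfr1 has 3 curated transcripts and Klb and Fgfr4 have 1 each, and the part of this number was again not tested.

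Most other PPAR alpha targets listed, which serve lipid oxidation and ketogenesis but also lipid uptake, storage and transport and related metabolism, had levels above 1 CPM. Of 31 genes, 23 lay above 1 CPM, 6 had fewer reads and 2 (Gpd1 and Por) were at the floor, beside 5, 2 and 2 of the 9 fasting genes and 9810 of 30743 rows above 1 CPM. The median was 29.3 CPM per kilobase for the 31 genes and 3.80 for the 9. The highest was Ucp2, a mitochondrial carrier, at 463 CPM per kilobase. Hadha, the alpha subunit of the mitochondrial trifunctional protein, had 83.6 CPM per kilobase, whereas Hadhb, the beta subunit of the same complex, had 1 read. Hadha has 1 curated transcript and Hadhb 3, while Gpd1 and Por, both at the floor, have 1 each. Of the 21 targets with 1 curated transcript, 18 lay above 1 CPM, against 5 of the 9 fasting genes. Among all 11284 protein-coding genes with 1 curated transcript, 47.4% lay above 1 CPM.

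**Figure D4:**
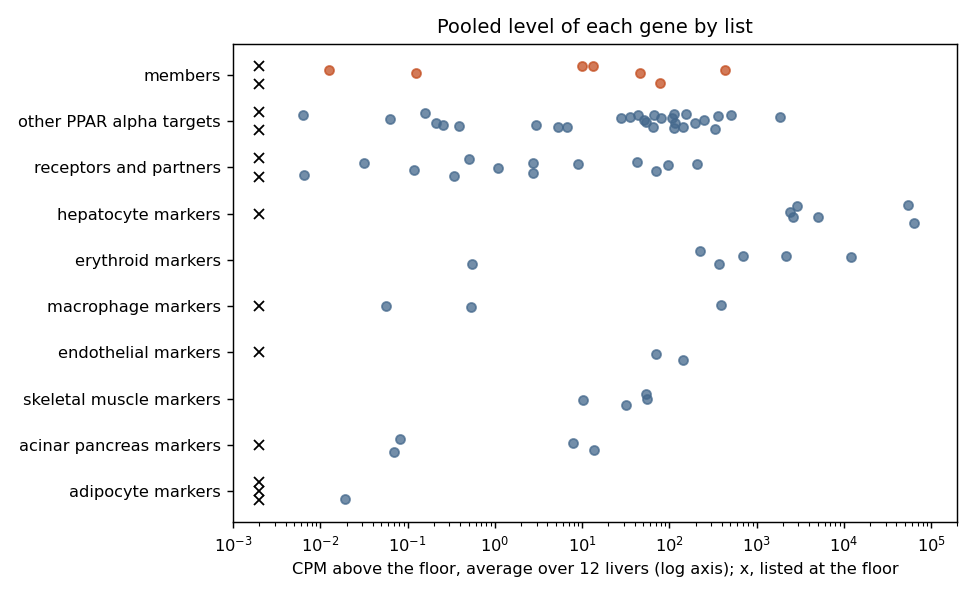
CPM above the floor, as an average over 12 livers on a log axis, of each gene by list, with crosses for genes at the floor. The fasting genes (orange) spread from the floor to 432 CPM, and 23 of the 31 other PPAR alpha targets lie above 1 CPM.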

How the data were processed

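PolyA-selected RNA of 12 fetal livers (6 control, 6 HFD) was sequenced on an Illumina HiSeq instrument. The submitters' processing notes name cutadapt 1.2.1, Subread 1.3.6-p1, edgeR and mm10, and per the study's methods edgeR compared the diets. The counter, the edgeR version and the treatment of multiply mapped reads are not given in the sources used here. The deposited table holds the authors' log2 fold changes, signed fold changes, p-values and adjusted p-values of HFD against control, none of which were used, and an average log2 CPM over all livers (given in 2 identical columns), which was. Tests planned on single livers were therefore not run, and p-values are not given.

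CPM above the floor is 2 to the power of the average log2 CPM minus the same at the floor. Reads over all livers were derived with a prior count of 2 (estimated as 2.00 from the lowest step, taken as 1 read). Of 5453 rows with up to 20 reads, 97.5% lay within 0.1 of a whole number. The conversion was checked on simulated data made with the same prior count and averaging. Rounded reads were exact in 100% of cases at 20 reads and in 8% at 1000 reads, where the median error was 0.348%. As the simulation assumes this averaging, it cannot show that the authors' averages were made in this way. The depth of single libraries is not known, and the mean after normalization was 13129748 reads. Intervals and floors (3 reads) cover counting error only. Lengths are those of the longest coding transcript in GENCODE M21 on GRCm38, the same build as mm10. Of the symbols, 21063 were found there. Curated RefSeq transcripts were counted for 18361 protein-coding rows. Named genes were the 9 genes, the highest and lowest of each list and those sharing sequence with the 9. Other genes were named after their values were seen: those at or near the floor, ubiquitous genes, receptors, relatives, and genes set beside them for contrast. Of the planned lists, 2 genes are not reported here. The genes and lists were chosen with earlier results of these data known. Scripts ran under Python 3.11.15, with matplotlib 3.10.9 for plots and scipy 1.17.1, pandas 2.3.3 and numpy 2.4.6 for computation.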

Additional observations from a re-analysis of the deposited data

How the results depend on the processing

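Of the 7 fasting genes with reads, 3 kept their rank per kilobase when levels were not divided by length, 3 with the shortest annotated coding transcript and 5 with the coding length, an alternative added after seeing the data. Plin2 remained first under each of these, and Cyp4a14 and Fgf21 remained sixth and seventh. The margin of Plin2 over the next gene was 5.61 times without division by length and 6.71 times with the shortest transcript, both over Cpt1a. With the coding length it was 9.20 times, over Acot1. The median percentile of the 7 genes was 74.3 among rows with reads and 83.6 among all rows. It was 70.0 among rows above 1 CPM, where 5 of the genes remained. Normalization, DESeq2, the filter on low counts, the pseudocount, leaving out single livers and averaging livers by the first number of their titles need values of single livers and were not run. The second average column repeats the first, and the RefSeq coding length was not used. No paired analysis was possible because the averages pool all livers. The values of Cyp4a14, Fgf21, Cyp4a10 and Angptl4 rest on 20 reads or fewer over 12 livers, and what sets their low levels was not tested.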
